A study of Mus musculus with 6 samples.

Results

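The 10 genes described here carry iron into macrophages, store it, release it from the store, export it or sense it: Tfrc, Fth1, Ftl1, Slc40a1, Slc11a1, Slc11a2, Hfe, Ireb2, Ncoa4 and Steap4. They were found by gene symbol in deposited tables of 23935 symbols. All 10 had a row, and all 10 were among the 16516 genes that passed the filter on low counts. Their RNA was measured by RNA-seq in bone marrow-derived macrophages (BMDMs), which are macrophages grown from marrow cells with the growth factor M-CSF. The study compared 3 PKM2ΔMAC with 3 PKM2FL/FL mice, with a library for each mouse, to ask how loss of the glycolytic enzyme PKM2 alters inflammatory macrophages. Mice of both groups carry the floxed Pkm allele, and PKM2ΔMAC mice also carry LysM-Cre, a recombinase placed in the Lyz2 gene that is active in macrophages and neutrophils. Controls were littermates without Cre, so the Cre insertion and the loss of PKM2 cannot be told apart. Marrow of femur and tibia was grown for 7 days in M-CSF at 10 ng/mL, and the cells of both groups were then primed for 16 h with IFN-γ (25 ng/mL) and LPS (10 ng/mL), a component of the bacterial outer membrane. The study's methods name male mice for BMDMs used in flow cytometry, but the age and sex of the mice whose BMDMs were sequenced are not given in the sources used here, and no library without priming was analysed here.

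Most cells take up iron bound to transferrin through the transferrin receptor, keep what they do not use inside a shell of ferritin heavy and light chains, and release iron through ferroportin, the known cellular iron exporter. Iron regulatory proteins bind short hairpins, called iron-responsive elements, in the mRNAs of these genes when iron is scarce. Binding in the 5′ UTR holds back translation, and binding in the 3′ UTR protects the mRNA from decay. Tissue macrophages recycle the iron of old red cells, and during infection they keep iron away from microbes, which makes these genes a regular subject of macrophage biology.

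The hairpins are printed because they are what ties the receptor, the ferritin and the exporter mRNAs to the same regulators. Coding transcripts of GENCODE M21 on GRCm38 were searched on the sense strand for a C, a stem of 5 bases, the loop CAGTGN and 5 bases that pair back with the stem, G with T allowed. Each sequence below is 29 bases of the mRNA, 5′ to 3′, written as DNA, with the loop in capitals. Tfrc held 4 such hairpins in the 3′ UTR of transcript Tfrc-201. Fth1, Ftl1 and Slc40a1 held 1 each in the 5′ UTR.
Tfrc 3′ UTR, loop 1: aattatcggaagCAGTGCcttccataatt
Tfrc 3′ UTR, loop 2: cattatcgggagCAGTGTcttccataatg
Tfrc 3′ UTR, loop 3: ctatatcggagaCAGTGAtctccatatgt
Tfrc 3′ UTR, loop 4: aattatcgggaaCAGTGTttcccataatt
Fth1 5′ UTR: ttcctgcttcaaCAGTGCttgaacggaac
Ftl1 5′ UTR: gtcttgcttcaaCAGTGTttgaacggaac
Slc40a1 5′ UTR: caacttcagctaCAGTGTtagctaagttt
Among 21877 coding genes, 31 held the pattern in a 5′ UTR, which is 0.142%, and 129 held it in a 3′ UTR, which is 0.59%. A match is a description of these letters and not a measured binding site. The element acts on translation or on mRNA decay, so RNA levels can speak only to part of it, and protein was not measured in these libraries.

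Library totals were between 49957449 and 54524651 counts, and at these totals 3 counts stand for 0.0546 to 0.0604 CPM, counts divided by the scaled library total, which covers counting error only. The labels were checked first. Pkm was at 1706 CPM in PKM2FL/FL BMDMs against 1068 CPM in PKM2ΔMAC BMDMs, and Lyz2, where Cre is inserted, was at 17825 against 28.4 CPM. PKM2ΔMAC replicates 1 to 3 held Pkm at 987, 1212 and 1005 CPM. Pkm was called by edgeR (adjusted p = 0.00913) and under 10 of 16 alternative settings. Its row counts PKM1 together with PKM2, so it does not measure PKM2 alone. The 8 macrophage markers summed to 7591 to 7897 CPM in PKM2FL/FL and 7679 to 8421 CPM in PKM2ΔMAC, with 1 called, Itgam, which was higher in PKM2ΔMAC. Genes that LPS and IFN-γ are known to induce were low for the labelled priming in both genotypes: Nos2 lay between 0.0385 and 0.490 CPM and Cxcl9 between 0.415 and 0.911 CPM, so the cells are called here the libraries labelled as primed. The 8 response genes together summed to 184 to 188 against 158 to 225 CPM. Stromal markers were present too, at 5817 to 6389 against 5561 to 7061 CPM, with 0 of 6 called. The summed B cell markers overlapped between the genotypes (39.4 to 50.8 against 42.4 to 55.2 CPM). So did those of T and NK cells (14.9 to 19.7 against 9.69 to 20.5) and dendritic cells (4.33 to 4.83 against 3.95 to 4.86). Mast cell and basophil markers overlapped in sum as well (8.13 to 8.97 against 6.67 to 11.2). In these lists 0 genes were called, but single genes lay apart. Cpa3, Fcer1a and Cd8a were lower in each PKM2ΔMAC library than in each control, and Cd79b was higher. Of these, Fcer1a and Cd8a were not tested. Among the PKM2ΔMAC libraries, replicate 2 stood apart: its counts differed from the other two by a chi-square per degree of freedom of 48.2 and 59.7, against 10.8 between those and 8.03 to 14.8 within PKM2FL/FL. It was the lowest of the 6 libraries in 4 of the 10 iron genes, so values are also given without it. In bulk RNA, fewer cells of a type and less RNA per cell cannot be told apart.

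None of the 10 iron genes was called different between the genotypes. The edgeR quasi-likelihood test, adjusted over all genes, called 0 of 10, where it called 0.412% of all genes tested, 0.285% higher and 0.127% lower in PKM2ΔMAC. DESeq2 also called 0 of 10, beside 1.54% of all genes, and edgeR with the replicate number as a block called 0 of 10, beside 0.496%. At an unadjusted p under 0.05 there was 1 of the 10, Hfe, against 9.83% of all genes. Hfe was lower in PKM2ΔMAC, as were 4.60% of all genes at that p, and 0 of the 10 were higher, beside 5.24%. For 0 of 10 genes did the 3 libraries of a genotype lie wholly apart from the other 3 in CPM, against 17.2% of all genes. The fitted log2 fold change, PKM2ΔMAC against PKM2FL/FL, was above 0 for 4 genes and below 0 for 6, with a median of -0.02 beside -0.00021 over all genes. Its median size was 0.08, and that of all genes 0.09.

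**Figure D1:**
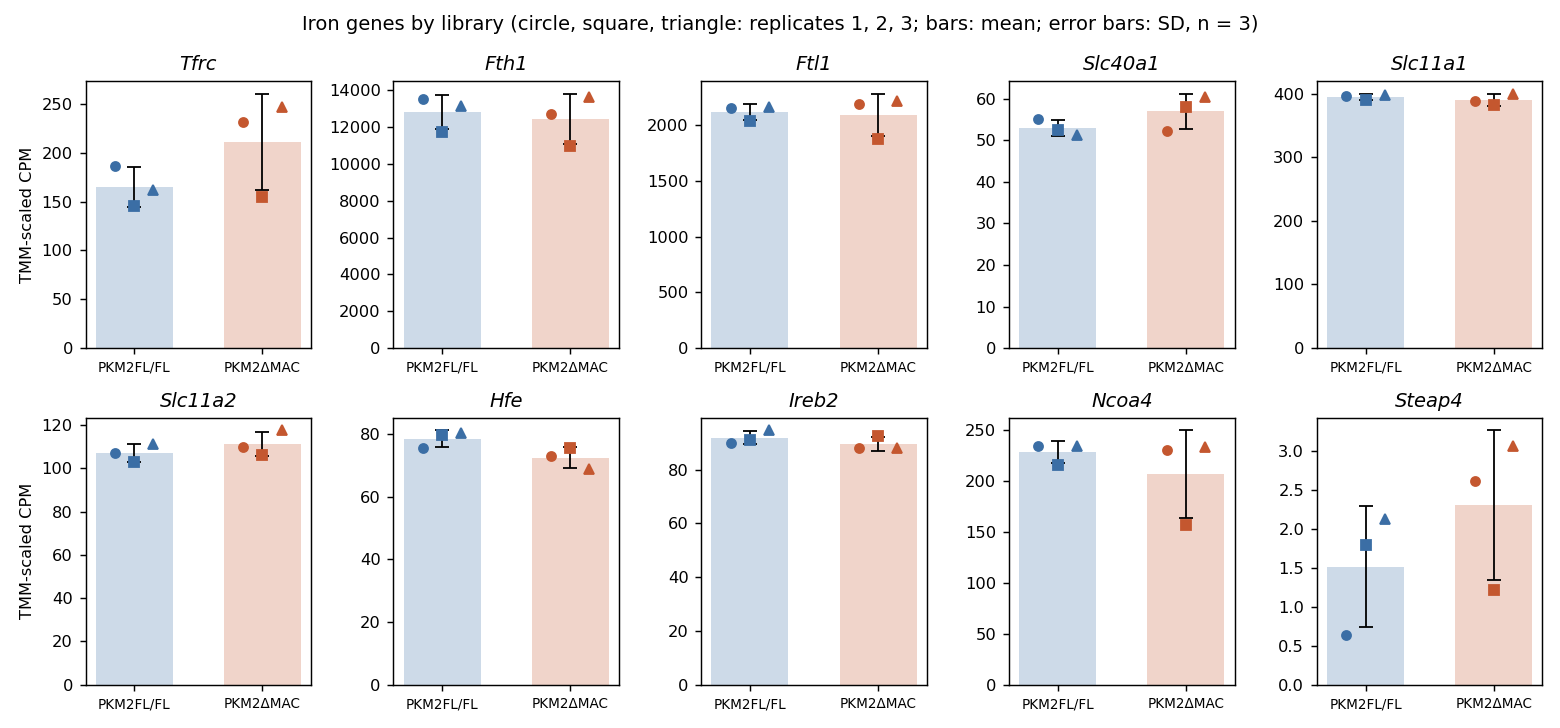
TMM-scaled CPM (y axis, from 0, a separate scale for each gene) of the 10 iron genes in the 3 PKM2FL/FL libraries (blue) and the 3 PKM2ΔMAC libraries (orange); circles, squares and triangles are replicates 1, 2 and 3, bars are means and error bars are SD. The genotypes overlap for each of the 10 genes, and the square of PKM2ΔMAC lies well below its group for Tfrc (155 CPM) and Ncoa4 (157 CPM).

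Storage took the largest share of the RNA of these genes. Fth1 (chr19:9980598-9985098 of GRCm38, plus strand, GENCODE M21, as for all positions here), the ferritin heavy chain that oxidises iron before it is stored, was counted at 13511, 11752 and 13125 CPM in PKM2FL/FL replicates 1 to 3. In PKM2ΔMAC it was counted at 12731, 10972 and 13648 CPM. The PKM2ΔMAC libraries thus held both the lowest and the highest value, and the PKM2FL/FL values lay between them. The means were 12796 ± 925 and 12450 ± 1360 CPM (SD, n = 3), a log2 fold change of -0.04 (adjusted p = 0.931 in edgeR, SE 0.09). Its 95% interval ran from -0.25 to 0.17.

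Ftl1 (chr7:45457944-45459884, minus strand), the ferritin light chain that helps the iron core to form, was at 2157, 2033 and 2162 CPM in PKM2FL/FL. The PKM2ΔMAC libraries held 2186, 1877 and 2215 CPM. Here too replicate 2 was the low library of each genotype, and the ranges overlapped. The log2 fold change was -0.02 (adjusted p = 0.965 in edgeR, SE 0.07), with a 95% interval from -0.18 to 0.14. For both chains the intervals left out a difference of more than 0.25 on the log2 scale in either direction. Without PKM2ΔMAC replicate 2 both estimates turned slightly positive, to 0.05 for Fth1 and 0.06 for Ftl1. The 2 chains together took 1.34% to 1.58% of all counts of a library, and Fth1 ranked between 2 and 5 by count among all genes. Both ferritins have processed copies in the genome. The 2 Fth1 pseudogene rows held 0 to 25 counts per library, and the 3 Ftl1 pseudogene rows held 1212 to 1520, equal to 1.13% to 1.29% of the ferritin light chain counts. How the authors assigned reads that fit several copies is not given in the sources used here, so the Ftl1 level is uncertain by that amount or more. Gm10252, which overlaps Ftl1 on the opposite strand, held 21 to 47 counts.

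Ncoa4 (chr14:32159865-32179855, plus strand) encodes the receptor that carries ferritin to lysosomes, where its iron is set free. It was at 235, 215 and 234 CPM in PKM2FL/FL, and at 230, 157 and 233 CPM in PKM2ΔMAC. A single library, PKM2ΔMAC replicate 2, was low, and the remaining 5 lay between 215 and 235 CPM. The log2 fold change of -0.14 (adjusted p = 0.836 in edgeR, SE 0.16) became 0.02 (SE 0.04) without that library. Among PKM2ΔMAC libraries the order of Ncoa4 was the order of both ferritins. Tfrc, Slc11a1, Slc11a2 and Steap4 had that order too, so it is not particular to Ncoa4 and ferritin.

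Tfrc (chr16:32608920-32632794, plus strand), the receptor for iron-loaded transferrin, had the higher mean in PKM2ΔMAC but did not pass the test. Its values were 186, 146 and 162 CPM in PKM2FL/FL, and 232, 155 and 247 CPM in PKM2ΔMAC. Replicates 1 and 3 of PKM2ΔMAC lay above each control, and replicate 2 lay among the controls. The means were 165 ± 20.5 and 211 ± 49.2 CPM (SD, n = 3), a log2 fold change of 0.36 (adjusted p = 0.647 in edgeR, SE 0.20). The fold of 1.28 had a 95% interval from 0.896 to 1.84, so these libraries do not settle the direction. Without PKM2ΔMAC replicate 2 the log2 fold change was 0.54 (SE 0.11), with an unadjusted p of 0.00648 and an adjusted p of 0.149 in edgeR. Over all fits that left out a library it ranged from 0.23, without PKM2ΔMAC replicate 3, to that value. The coefficient of variation was 12.4% in PKM2FL/FL and 23.3% in PKM2ΔMAC, where genes of similar level had medians of 2.77% and 4.21%. The spread between mice was therefore wide for Tfrc in both genotypes, at a depth where counting error is small. Proliferating cells are known for high Tfrc, and cycling cell markers moved in the same direction: 10 of 10 had a higher fitted level in PKM2ΔMAC with 0 called, and their summed CPM was 501 to 515 against 616 to 849. The largest of those sums was in PKM2ΔMAC replicate 2, the library with the lowest Tfrc of its genotype. The part of cycling cells in the Tfrc values was not tested.

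Slc11a2 (DMT1, chr15:100387898-100425072, minus strand) moves ferrous iron out of endosomes into the cytosol after transferrin has been taken up. It was at 107, 103 and 111 CPM in PKM2FL/FL and at 110, 106 and 117 CPM in PKM2ΔMAC. The groups overlapped, with a log2 fold change of 0.06 (adjusted p = 0.782 in edgeR, SE 0.05). Leaving out a library gave 0.013 to 0.088, with the direction kept. An antisense gene, Gm5475, overlaps Slc11a2 and held only 5 to 14 counts per library. Whether the authors' counting used strand is not given in the sources used here.

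Slc11a1 (NRAMP1, chr1:74375195-74386062, plus strand), which pumps metal ions out of the phagosome and is linked to resistance to intracellular microbes, varied least. It was at 396, 389 and 397 CPM in PKM2FL/FL, and at 388, 382 and 400 CPM in PKM2ΔMAC. Its lowest and highest libraries were thus both PKM2ΔMAC. The log2 fold change was -0.02 (adjusted p = 0.932 in edgeR, SE 0.04), with a 95% interval from -0.10 to 0.07. Its coefficients of variation, 1.10% and 2.35%, were under the 2.71% and 4.53% of genes of similar level.

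Steap4 (chr5:7960457-7982213, plus strand), a metalloreductase that turns ferric into ferrous iron, was the rarest of the 10. It was read 34, 93 and 108 times in PKM2FL/FL and 139, 67 and 152 times in PKM2ΔMAC, which is 0.637, 1.79 and 2.13 CPM against 2.62, 1.22 and 3.06 CPM. Replicate 2 of PKM2ΔMAC lay inside the PKM2FL/FL range and the other 2 lay above it. The log2 fold change of 0.60 was the largest of the 10 and the least precise (adjusted p = 0.770 in edgeR, SE 0.51), with a 95% interval from -0.61 to 1.81. Its coefficients of variation were 51.5% and 41.8%, where genes of similar level had medians of 15.5% and 18.7%. The log2 fold change was 0.91 without PKM2ΔMAC replicate 2, and over all fits that left out a library it ranged from 0.23, without PKM2FL/FL replicate 1, to 0.92. The summed neutrophil markers ranked the libraries in the same order within each genotype. Their CPM was 20.3, 34.9 and 48.8 in PKM2FL/FL and 122, 90.1 and 170 in PKM2ΔMAC, with 8 of 8 markers higher and 0 called. Mmp8 had another order in PKM2ΔMAC, at 9.67, 26.4 and 10.3 CPM. Elane, Mpo and Mmp8 overlapped between the genotypes. The part of neutrophils in the Steap4 values was not tested.

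Slc40a1 (chr1:45908068-45926523, minus strand) encodes ferroportin, the exporter. Its values were 55.1, 52.3 and 51.4 CPM in PKM2FL/FL, and 52.2, 58.1 and 60.5 CPM in PKM2ΔMAC. Replicate 1 of PKM2ΔMAC lay among the controls, and the other 2 lay above them. The means were 52.9 ± 1.94 and 56.9 ± 4.25 CPM (SD, n = 3), a log2 fold change of 0.10 (adjusted p = 0.627 in edgeR, SE 0.06) with a 95% interval from -0.03 to 0.24. Leaving out a library gave 0.058 to 0.16. Cp, whose product ceruloplasmin oxidises the iron that ferroportin releases, was at 95.9, 103 and 94.5 CPM against 117, 62.8 and 122 CPM. Its PKM2ΔMAC libraries lay on either side of the controls, and the log2 fold change of 0.04 (SE 0.27) became 0.29 without PKM2ΔMAC replicate 2 (adjusted p = 0.00941, edgeR).

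Hfe (chr13:23702034-23710854, minus strand), an MHC class I-like protein that binds the transferrin receptor and is altered in hereditary haemochromatosis, came nearest to the test among the 10. It was at 75.5, 79.7 and 80.3 CPM in PKM2FL/FL, and at 72.9, 75.6 and 68.9 CPM in PKM2ΔMAC. The groups met at a single point, where PKM2FL/FL replicate 1 and PKM2ΔMAC replicate 2 were nearly equal. The means were 78.5 ± 2.59 and 72.4 ± 3.36 CPM (SD, n = 3), a log2 fold change of -0.12 (SE 0.05) with a 95% interval from -0.22 to -0.0078. The unadjusted p was 0.0384 and the adjusted p 0.473 in edgeR, and the two-sided exact permutation test gave p = 0.2. Without PKM2ΔMAC replicate 2 the log2 fold change was -0.15, with an adjusted p of 0.176 in edgeR.

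Ireb2 encodes iron regulatory protein 2, which binds the hairpins printed above and is itself degraded when iron is plentiful. It was at 89.9, 90.9 and 94.5 CPM in PKM2FL/FL, and at 87.9, 92.4 and 88.2 CPM in PKM2ΔMAC. The ranges overlapped, and the log2 fold change was -0.04 (adjusted p = 0.827 in edgeR, SE 0.04). Ireb2 lies on chromosome 9, as Pkm does, at chr9:54863789-54912530 of GRCm38 and 4.74 Mb before it. Its partners were not called either. Aco1, iron regulatory protein 1, was at 93.1 ± 2.74 and 93.7 ± 7.83 CPM (SD, n = 3). Fbxl5, the iron-sensing ligase subunit that marks iron regulatory protein 2 for degradation, was at 56.4 ± 2.10 and 53.9 ± 1.95 CPM (SD, n = 3), with an adjusted p of 0.723 in edgeR. Hepcidin, the hormone that removes ferroportin from the cell surface, was nearly unread: Hamp held 8, 0 and 0 counts in PKM2FL/FL and 3, 0 and 1 in PKM2ΔMAC, and was not tested.

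**Figure D2:**
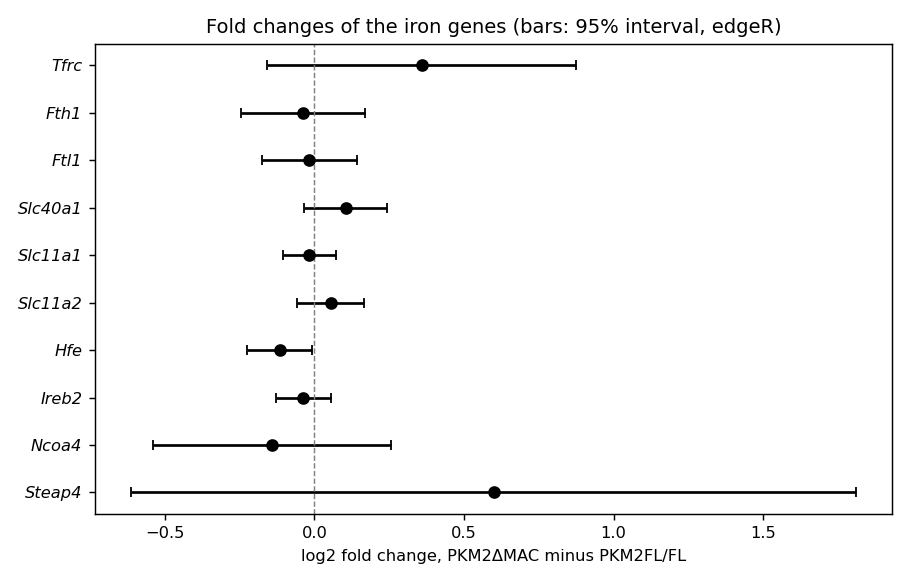
Log2 fold change (x axis, PKM2ΔMAC minus PKM2FL/FL) of each iron gene from edgeR, with bars for the 95% interval and a dashed line at 0. The interval of Hfe, from -0.22 to -0.0078, is the only one of the 10 that leaves out 0 before adjustment, and those of Steap4, Tfrc and Ncoa4 are the widest.

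Two-sided exact permutation tests on log2(CPM + 0.1), which cannot give a p under 0.10 with 3 libraries against 3, gave p between 0.2 and 1 for the 10 genes. PKM2ΔMAC replicate 3 was the highest of the 6 libraries for 7 of the 10, and replicate 2 was the lowest of its genotype for 7 of the 10. Replicate 2 also stood apart over all its counts, and the share of all genes at these ranks is not given here. The ranks are therefore not read as a trait of the iron genes.

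Levels of different genes were compared per transcript length, in the deposited TPM values. Over all 6 libraries Fth1 averaged 13046 TPM, the fifth highest level in the table, and Ftl1 averaged 5635 TPM, rank 16. Slc11a1 followed at 380 TPM, Tfrc at 109, Ncoa4 at 83.0, Hfe at 75.8, Slc11a2 at 61.7, Ireb2 at 34.3, Slc40a1 at 21.9 and Steap4 at 2.17 TPM. The ferritin mRNAs thus stood far above those of the genes that bring iron in, and the mRNA of the exporter was near the bottom. Ranges of neighbours did not overlap between Fth1 (12019 to 14169), Ftl1 (5345 to 5953), Slc11a1 (371 to 393) and Tfrc (83.6 to 144). Tfrc overlapped with Ncoa4 (64.0 to 89.5), and Ncoa4 with Hfe (69.5 to 80.7) and with Slc11a2. Tfrc was above Ncoa4 within each of the 6 libraries. Ncoa4 was above Slc11a2 within each of them too, but only at 64.0 against 63.8 TPM in PKM2ΔMAC replicate 2. The order of Ncoa4 and Hfe is not settled. Tfrc lay clear of Hfe, and Hfe of Slc11a2 (57.5 to 66.6). Ireb2 (32.9 to 37.2), Slc40a1 (19.9 to 24.6) and Steap4 (0.700 to 3.50) were each clear of the next.

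The choice of scale mattered for small differences. In TPM the genotypes lay apart for Slc11a1, at 371, 373 and 374 TPM against 380, 393 and 388 TPM. They lay apart for Slc11a2 as well, at 58.5, 57.5 and 60.9 TPM against 62.8, 63.8 and 66.6 TPM. Both overlapped in TMM-scaled CPM. In TPM the genotypes lay apart for 23.0% of 14582 genes, and the median log2 difference of all genes was 0.06 above 0, so that TPM places most genes slightly higher in PKM2ΔMAC. limma-trend on log2(TPM + 1) called neither gene, and gave Slc11a2 0.12 (adjusted p = 0.334) and Tfrc 0.41 (adjusted p = 0.363). The unadjusted p in that limma-trend fit was 0.0244 for Slc11a2 and 0.0435 for Tfrc, while Hfe was at -0.04 with an unadjusted p of 0.519. The share of all genes at an unadjusted p under 0.05 on this scale is not given here. No count of the 10 is therefore read from these p-values.

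**Figure D3:**
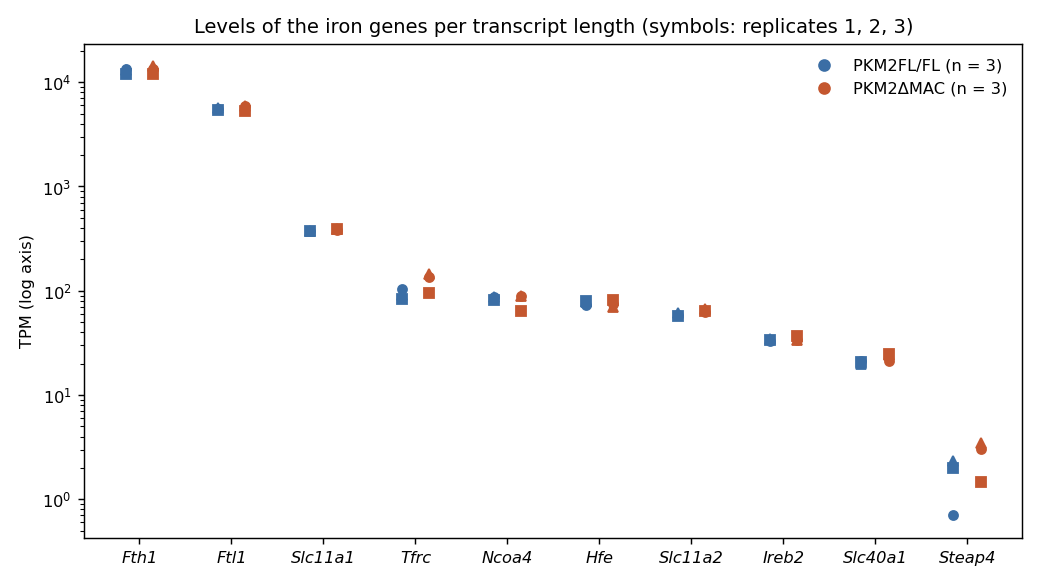
TPM (y axis, log scale) of the iron genes in order of their mean level, with the 3 PKM2FL/FL libraries in blue and the 3 PKM2ΔMAC libraries in orange; circles, squares and triangles are replicates 1, 2 and 3. The 2 ferritins lie at 5345 TPM or above, Slc11a1 near 380 TPM and Steap4 between 0.700 and 3.50 TPM.

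Ratios within a library do not depend on the scaling between libraries. The ratio of Tfrc to Fth1, receptor to store, was 0.00774, 0.00696 and 0.00693 in PKM2FL/FL, and 0.0102, 0.00794 and 0.0102 in PKM2ΔMAC. Each PKM2ΔMAC library lay above each PKM2FL/FL library, replicate 2 by the least. The means were 0.00721 ± 0.000462 and 0.00943 ± 0.00130 (SD, n = 3), 30.9% higher, and the two-sided exact permutation test gave p = 0.10, the smallest it can give, and 0.3 adjusted over the 3 ratios tested. The order therefore was complete, with the nearest libraries at 0.00794 and 0.00774, while 3 libraries against 3 cannot pass a threshold of 0.05 in this test. Single genes lay apart in TPM for 23.0% of 14582 genes, and the share of gene ratios that lie apart is not given here. The complete order is therefore not read as a trait of this pair.

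The ratio of heavy to light ferritin chain was 2.42, 2.23 and 2.34 in PKM2FL/FL, and 2.25, 2.26 and 2.38 in PKM2ΔMAC. The means of 2.33 ± 0.0941 and 2.30 ± 0.0731 (SD, n = 3) differed by less than the spread between mice (exact permutation test, p = 0.7). The ratio of Slc40a1 to Tfrc, exporter to receptor, was 0.203, 0.247 and 0.218 in PKM2FL/FL, and 0.155, 0.257 and 0.168 in PKM2ΔMAC. Replicate 2 of PKM2ΔMAC held the highest ratio of all and the other 2 the lowest, and the groups did not differ beyond this spread (exact permutation test, p = 0.4, adjusted over the 3 ratios 0.6).

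**Figure D4:**
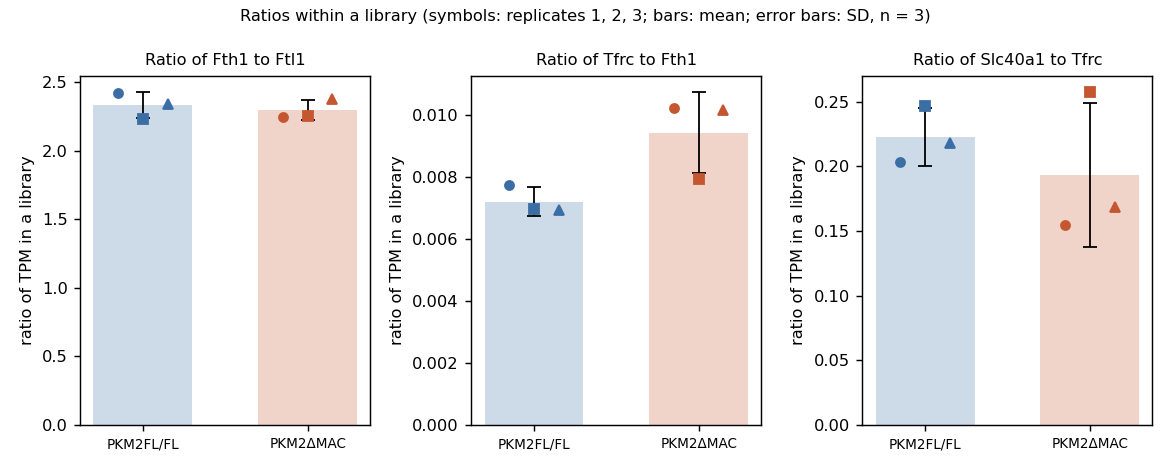
Ratios of TPM within a library (y axes, from 0) for Fth1 to Ftl1, Tfrc to Fth1 and Slc40a1 to Tfrc, in PKM2FL/FL (blue) and PKM2ΔMAC (orange); symbols are replicates 1, 2 and 3, bars are means and error bars are SD. The ratio of Tfrc to Fth1 lies between 0.00693 and 0.00774 in PKM2FL/FL and between 0.00794 and 0.0102 in PKM2ΔMAC, and the other ratios overlap.

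The wider iron and haem pathway was read from lists of 75 further genes, of which 72 had a row and 67 were tested. edgeR called 0 of the 67 at the adjusted threshold, beside 0.412% of all genes, and DESeq2 called 3 of the 69 it tested, beside 1.54% of all genes. At an unadjusted p under 0.05 there were 11, 6 higher and 5 lower, which is 16.4% beside 9.83% of all genes. The genotypes lay apart for 12 of the 67, which is 17.9% beside 17.2% of all genes. The median log2 fold change was -0.01. By role, the fitted level was higher in PKM2ΔMAC for 6 of 11 genes of iron uptake and reduction, 1 of 2 of export and oxidation, 2 of 7 of iron sensing and the hepcidin axis and 3 of 6 of storage and chaperones. It was higher for 4 of 12 genes of haem uptake, breakdown and export, 5 of 10 of haem synthesis and 8 of 19 of mitochondrial iron and iron-sulfur clusters. None of these lists leaned wholly to one side.

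**Figure D5:**
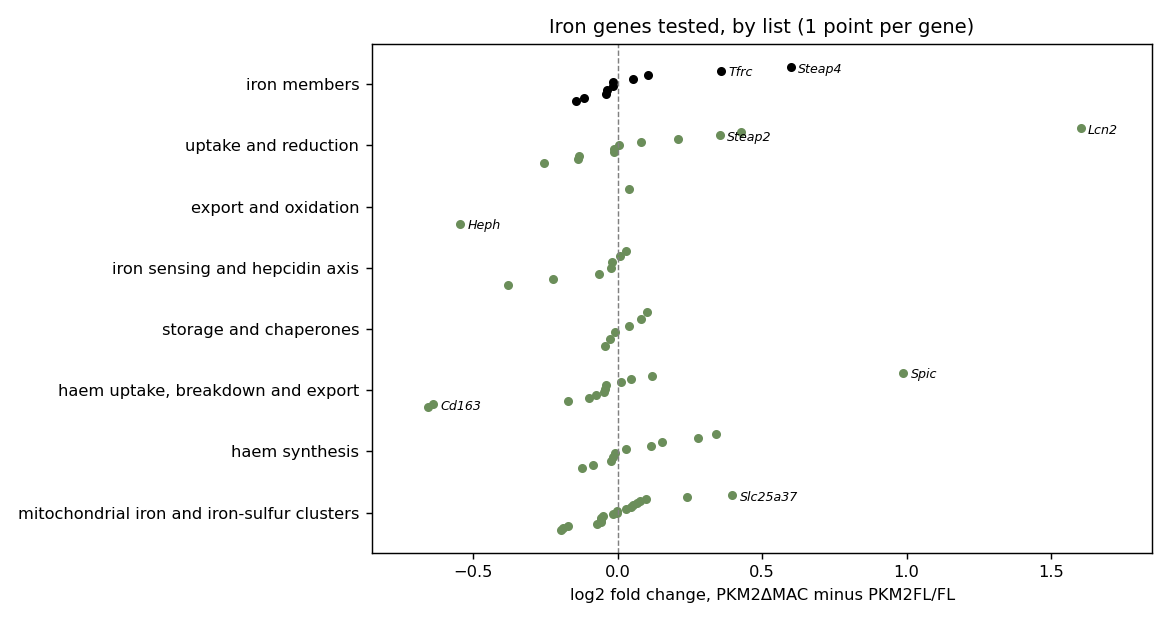
Log2 fold change (x axis, PKM2ΔMAC minus PKM2FL/FL, edgeR) of the tested iron genes, 1 point per gene, in rows for the 10 iron genes and the 7 further lists, with a dashed line at 0. Most points lie near 0, with Lcn2 at 1.60 farthest to the right and Cd163 and Heph among those farthest to the left.

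Slc25a37 (mitoferrin-1), which brings iron into mitochondria, had the smallest p of the wider lists. It was at 62.1, 66.3 and 66.5 CPM in PKM2FL/FL and at 76.7, 89.2 and 90.7 CPM in PKM2ΔMAC. All 3 PKM2ΔMAC libraries lay above the controls. The means were 65.0 ± 2.53 and 85.5 ± 7.68 CPM (SD, n = 3), a log2 fold change of 0.40 (adjusted p = 0.0579 in edgeR, SE 0.07), just short of the threshold. It was called under 6 of 16 alternative settings, DESeq2 and the fit without PKM2ΔMAC replicate 2 among them, and kept its direction under all 16. Red cell precursors are known to be rich in Slc25a37. Of 8 erythroid markers 6 had a row, and their summed CPM was 3.46 to 4.17 in PKM2FL/FL and 3.28 to 5.14 in PKM2ΔMAC, with 3 of 4 tested higher and 0 called. Among them Hba-a1, an alpha globin gene, was at 0.637, 0.577 and 0.728 CPM against 2.02, 0.856 and 1.07 CPM, without overlap (log2 fold change 1.02, adjusted p = 0.401, edgeR). Alas2, the erythroid enzyme of haem synthesis, was at most 0.0962 CPM in PKM2FL/FL and at least 0.132 CPM in PKM2ΔMAC, and was not tested. The remaining markers, Hbb-bs, Klf1, Epor and Gata1, overlapped between the genotypes. Their edgeR log2 fold changes were 0.127 for Hbb-bs, 0.182 for Epor and -0.496 for Gata1, and Klf1 was not tested. The part of red cell precursors in the Slc25a37 values was not tested.

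Lcn2, which binds bacterial iron carriers and is abundant in neutrophil granules, had the largest fold of the lists. It was at 1.76, 2.96 and 4.29 CPM in PKM2FL/FL and at 10.6, 6.03 and 10.7 CPM in PKM2ΔMAC. The groups did not overlap, and the log2 fold change was 1.60 (adjusted p = 0.247 in edgeR, SE 0.37), while DESeq2 called it. The summed neutrophil markers given beside Steap4, though not Mmp8 alone, ordered the libraries the same way within each genotype. The part of neutrophils in the Lcn2 values was not tested. Spic, the transcription factor of iron-recycling splenic macrophages, averaged 1.23 ± 0.279 against 2.45 ± 1.27 CPM (SD, n = 3; adjusted p = 0.458, edgeR), with 1.33 CPM in PKM2ΔMAC replicate 2. Cd163, the receptor for haemoglobin bound to haptoglobin, was at 10.1, 11.4 and 8.96 CPM against 4.45, 9.01 and 6.10 CPM (adjusted p = 0.474, edgeR). In both genes replicate 2 was the PKM2ΔMAC library nearest to the controls. The log2 fold change of Spic, 0.99, was 0.52 without PKM2ΔMAC replicate 3, and that of Cd163, -0.64, was -0.42 without PKM2ΔMAC replicate 1. Without PKM2ΔMAC replicate 2 edgeR called 5 of the wider genes, among them Cd163 (-0.95), Cp (0.29), Slc25a37 (0.37) and Spic (1.29), and 0 of the 10 iron genes, where it called 1.77% of all genes.

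The remaining genes with the smallest p were Heph, a ferroxidase related to ceruloplasmin (-0.54, adjusted p = 0.340), and Steap2, a metalloreductase (0.35, adjusted p = 0.413). Blvra, which reduces biliverdin (-0.10, adjusted p = 0.438), Mcoln1, a lysosomal cation channel (-0.14, adjusted p = 0.456), and Fdxr, which passes electrons to mitochondrial ferredoxin (0.24, adjusted p = 0.474), completed them. The genotypes lay apart for Steap2, Blvra, Mcoln1 and Fdxr, and none passed the edgeR test. The log2 fold change moved to 0.20 for Steap2 and to -0.078 for Mcoln1 when PKM2ΔMAC replicate 2 was left out. Hmox1, which opens the haem ring and frees its iron, was at 316 ± 9.44 and 343 ± 31.9 CPM (SD, n = 3), with an adjusted p of 0.616 in edgeR. Slc39a14, a carrier of iron not bound to transferrin, was at 50.3 ± 0.808 and 50.4 ± 3.40 CPM (SD, n = 3). Steap3, the endosomal metalloreductase that serves Slc11a2, was at 51.6 ± 6.89 and 51.2 ± 13.6 CPM (SD, n = 3).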

How the data were processed

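The authors deposited raw read counts per gene symbol and, for the same symbols and 6 libraries, TPM values. The submitters' processing notes name FastQC 0.12.1, Trim Galore 0.6.10, HISAT2 2.2.1, SAMtools 1.19.2, Subread 2.0.6 and the build mm10. The annotation, strand setting and treatment of reads that fit several places are not given in the sources used here. The deposited TPM values summed to 999626 to 999691 per library. Counts were compared with edgeR 4.0.16 (R 4.3.3, limma 3.58.1): filterByExpr, TMM factors (0.980 to 1.04), robust quasi-likelihood fit on genotype alone, Benjamini-Hochberg adjustment over 16516 genes and a threshold of 0.05. CPM values used library totals multiplied by the TMM factors. Two-sided exact permutation tests used log2(CPM + 0.1) or the log2 ratio of TPM. Groups and replicate numbers came from the sample titles, and each replicate is a mouse. The iron genes, the further lists and the markers were chosen with earlier results of these data known. All 10 iron genes were named. From the further lists, genes called by edgeR and the 10 with the smallest p among those with a mean of at least 1 CPM were named, as were fixed partners (Aco1, Fbxl5, Hamp, Hmox1, Lcn2, Slc39a14, Steap3, Cp), and 1 gene that this rule takes is not reported here. The fit was repeated with DESeq2 1.42.0, with RLE or upper-quartile factors, without the filter, with at least 10 counts, with a replicate block, with non-robust estimation, by limma-trend on log2(TPM + 1 or 0.1), and with each library left out in turn. Functions were tested on simulated data. Hairpins and positions came from GENCODE M21 on GRCm38.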

Additional observations from a re-analysis of the deposited data

How the results depend on the processing

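The number of iron genes called was 0 of 10 under edgeR and each of the 16 alternatives. Over all genes, edgeR called 68, DESeq2 289 and edgeR without the filter 120. limma-trend called 41 on log2(TPM + 1), 34 on log2(TPM + 0.1) and 36 on log2(TPM + 1) without the filter. Leaving out a library gave 22 to 299, with 26, 27 and 22 without PKM2FL/FL replicates 1, 2 and 3 and 299 without PKM2ΔMAC replicate 2. Of the wider iron genes, DESeq2 called 3, upper-quartile factors 1, no filter 2, and leaving out a library 0 to 5. Same-numbered libraries of the genotypes had deviations correlated by 0.08, 0.14 and 0.02, and differently numbered ones by -0.12 to 0.07. The numbers are mouse numbers and were not taken as pairs, and these correlations do not settle whether they are. The replicate block called 82 genes, 0 of the 10 iron genes and 1 of the wider genes, and turned Cp to -0.013. On TPM with limma-trend the log2 fold changes of Fth1 (0.030), Ftl1 (0.052), Slc11a1 (0.056), Ireb2 (0.035 and, with 0.1 added, 0.036), Fbxl5 (0.0083 and 0.0086) and Steap3 (0.030) turned positive, where the median of all genes was 0.06. Leaving out a library gave -0.11 to 0.045 for Fth1, -0.060 to 0.057 for Ftl1, -0.035 to 0.00027 for Slc11a1, -0.24 to 0.022 for Ncoa4, -0.047 to 0.074 for Aco1, -0.043 to 0.055 for Slc39a14, -0.16 to 0.19 for Steap3 and -0.12 to 0.29 for Cp. The log2 difference of ratios ranged from -0.054 to 0.0044 for Fth1 to Ftl1, from 0.32 to 0.50 for Tfrc to Fth1 and from -0.46 to -0.09 for Slc40a1 to Tfrc. The cause of these turns was not tested. Hamp, Hjv and Tmprss6 had at most 8 counts in a library and were not tested.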
